A study of Mus musculus with 39 samples.

Results

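The genes described here are the neurotrophic factors Gdnf, Artn, Bdnf and Ntf3 and the receptors Ngfr, Ntrk2, Gfra1, Gfra3 and Ret, 9 genes taken by name from the 55573 genes counted in each library of mouse sciatic nerve. All 9 passed the filter on low counts, as did 18442 genes in all. The study crushed the sciatic nerve of adult C57BL/6 mice on one side, collected that nerve (injured) and the uncrushed nerve of the other side (healthy) at 2 or 4 weeks post-crush (wpc), stripped off the perineurium and sequenced polyadenylated RNA of the remaining endoneurium. Control mice (Lepr-ctrl) were Leprfl/fl and carried the floxed leptin receptor alleles without Cre. Knockout mice (Lepr-cKO) were Leprfl/fl::Dhh-Cre, so both genotypes shared the floxed alleles, and every mouse had a crushed nerve. The Dhh promoter drives Cre in the Schwann cell lineage from embryonic life on, and the paper describes the loss as selective for Schwann cells. Whether other endoneurial cells kept the receptor gene was not tested here. The recombined allele lacks exon 1 but still gives a truncated receptor without a signal peptide. The 39 libraries came from 22 mice, of which 17 gave both nerves. At 2 wpc there were 5 Lepr-ctrl healthy, 6 Lepr-cKO healthy, 5 Lepr-ctrl injured and 5 Lepr-cKO injured libraries, and at 4 wpc there were 5, 5, 4 and 4. The mice of 2 and 4 wpc were different animals, and the healthy nerve had shared its animal with a crushed one. Libraries held 10905806 to 45016322 gene counts, with a median of 27752451, and the Lepr-ctrl injured 4 wpc libraries were the shallowest (10905806 to 17640587).

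Schwann cells, the glia of peripheral nerve, switch after axotomy to a repair state in which they secrete growth factors that act on the regrowing axons. The GDNF family ligands, GDNF and artemin among them, bind a lipid-anchored co-receptor of the GFRα family, and the complex signals through the tyrosine kinase RET. The neurotrophins BDNF and NT-3 bind Trk receptor kinases, and all neurotrophins also bind the p75 receptor, the product of Ngfr, which is a known marker of immature and repair Schwann cells.

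Markers of Schwann cells in general (Sox10, S100b, Erbb3 and Cdh19) were present in every library, with summed levels of 2390 to 3030 counts scaled to a library total of 1e6 (CPM) in healthy and 804 to 2260 CPM in injured nerves. Perineurial markers remained at 167 to 579 CPM. A few libraries stood apart, and they are named by the animal code in their labels (the prefix SLRKO marks all mice of 2 wpc, of either genotype). The Lepr-cKO injured 2 wpc nerve of mouse SLRKO2wpc126 had 35500 CPM of skeletal muscle markers against 2.64 to 28.2 CPM in the other 38 libraries. The Lepr-cKO injured 4 wpc nerve of mouse KO-169 had 588 CPM of repair Schwann cell markers against 184 to 207 CPM in the other 3 nerves of its group, and 2.95% of its counts came from the mitochondrial genome against 9.84% to 20.2%. That mitochondrial share was 33% in the Lepr-ctrl injured 2 wpc nerve of mouse SLRKO2wpc144 and 29.7% in the Lepr-cKO injured 2 wpc nerve of mouse SLRKO2wpc135. Where leaving out one of these nerves changed the call of a member or moved a called fold by over 1.5 times, the value without it is also given. Lepr itself had 53.3 CPM in Lepr-ctrl and 69.7 CPM in Lepr-cKO injured nerves at 2 wpc, and 44.6 and 30.6 CPM at 4 wpc, and it was not called between the genotypes at either time. A gene count over the exons that remain, in all cells of the nerve, does not check the loss of exon 1.

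In healthy nerve the receptors were far more abundant than the ligands. On a scale of CPM per kilobase of exon, which allows a rough comparison of genes, the levels in Lepr-ctrl healthy nerves at 2 wpc ran from Gfra1 at 67.4 ± 4.52 (SD, n = 5) through Ngfr at 17.7 ± 3.42 and Ntrk2 at 6.22 ± 1.05 to Ret at 1.22 ± 0.433 and Gfra3 at 1.11 ± 0.481. The ligands followed, with Gdnf at 0.153 ± 0.0883, Artn at 0.0644 ± 0.017, Ntf3 at 0.0403 ± 0.032 and Bdnf at 0.0256 ± 0.0216. Ret and Gfra3 did not differ beyond their spread, and neither did Artn and Ntf3 or Ntf3 and Bdnf, whereas every Artn value lay above every Bdnf value. In Lepr-ctrl injured nerves at 2 wpc Ngfr came to the head of the order at 102 ± 43.5 CPM per kilobase and Gfra1 stood at 27.2 ± 8.77. Gdnf had moved level with Ntrk2, at 3.01 ± 1.2 and 3.58 ± 2.43 CPM per kilobase, and Artn, at 1.7 ± 0.487, lay among Ret at 1.98 ± 0.463 and Gfra3 at 1.64 ± 1.18. These last 5 genes overlapped in their spread, as Ntf3 (0.189 ± 0.134) and Bdnf (0.156 ± 0.0757) did at the bottom. Ntrk2 gives rise to a full-length kinase and to truncated receptors, which a gene count does not separate. The length used covers all annotated exons of a gene, 19292 bases for Ntrk2 and 3674 bases for Gdnf. The place of Ntrk2 in the order, and that of Gdnf beside it, depends on this choice of length.

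**Figure D1:**
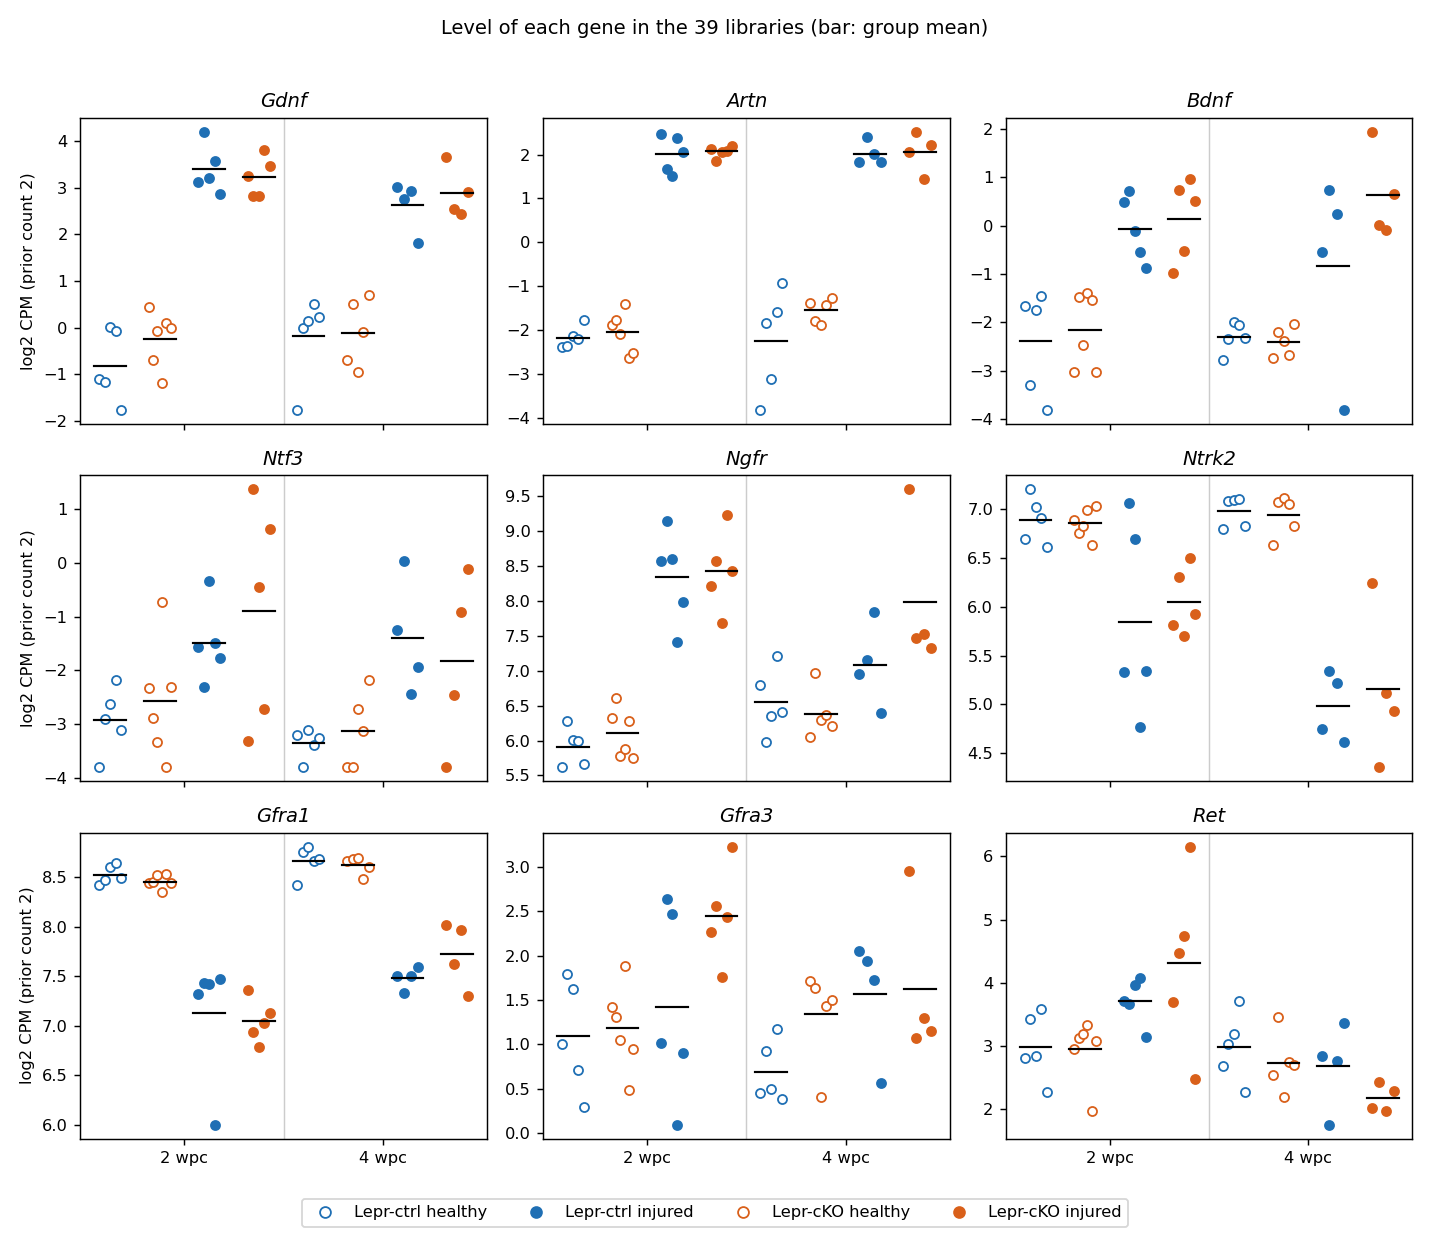
Level of each of the 9 genes in every library, in log2 CPM with a prior count of 2, by genotype, nerve and time after crush; each point is a library and each bar a group mean. Injured nerves lie above healthy nerves without overlap for Gdnf (3.47 to 18.3 against 0.222 to 1.56 CPM before the log) and Artn, and below them for Gfra1 (63.9 to 259 against 325 to 448 CPM).

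The ligand Gdnf lies on chromosome 15 (chr15:7810846-7837575 in GRCm38, plus strand), Artn on chromosome 4 (chr4:117926162-117929763, minus strand), Bdnf on chromosome 2 (chr2:109674700-109727007, plus strand) and Ntf3 on chromosome 6 (chr6:126101412-126166910, minus strand). The RefSeq promoter windows of GRCm38.p6, each 300 bases long with 250 before the transcript start, were read for the ligands because Gdnf, Artn and Bdnf rose after crush in both genotypes. Windows were searched on both strands for the letters of AP-1 (TGANTCA), of the cAMP response element (TGACGTCA), of SOX factors (ACAAAG) and of EGR factors (GCGNGGGCG), and no match overlapped another. N stands for any base, so the AP-1 letters are a wider pattern than the site of JUN dimers. The first of 2 windows of Gdnf and the window of Artn, the genes with the largest rise at 2 wpc, follow, and neither held any of these letters. Of the 7 windows of Bdnf, the second held AP-1 letters and the third SOX letters, which are in capitals. The AP-1 letters found were TGAATCA, with A at the centre, a match to the wider pattern only. Among all 32851 mouse windows 7.81% held the AP-1 letters and 18.7% the SOX letters, 1.79% the cAMP response element and 5.55% the EGR letters. The windows of the receptors Ngfr, Ntrk2 and Gfra1 were searched too. Of the 15 windows of these receptors and the ligands, 7 genes together, 13 held none of the letters.
Gdnf window 1, chr15:7809798-7810097 plus strand: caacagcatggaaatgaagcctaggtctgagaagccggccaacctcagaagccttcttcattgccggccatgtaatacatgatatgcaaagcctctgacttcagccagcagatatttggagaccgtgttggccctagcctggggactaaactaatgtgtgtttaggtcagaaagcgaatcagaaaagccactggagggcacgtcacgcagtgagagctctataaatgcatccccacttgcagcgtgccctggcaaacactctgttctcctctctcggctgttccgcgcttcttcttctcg
Artn window, chr4:117929714-117930013 minus strand: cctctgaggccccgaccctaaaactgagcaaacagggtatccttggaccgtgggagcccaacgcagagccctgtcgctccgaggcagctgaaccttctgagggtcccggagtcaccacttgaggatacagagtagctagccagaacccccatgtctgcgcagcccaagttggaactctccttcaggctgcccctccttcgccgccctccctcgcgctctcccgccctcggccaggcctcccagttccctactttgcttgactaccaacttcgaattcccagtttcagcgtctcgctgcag
Bdnf window 2, chr2:109676782-109677081 plus strand, AP-1 letters at -152 to -146 from the start: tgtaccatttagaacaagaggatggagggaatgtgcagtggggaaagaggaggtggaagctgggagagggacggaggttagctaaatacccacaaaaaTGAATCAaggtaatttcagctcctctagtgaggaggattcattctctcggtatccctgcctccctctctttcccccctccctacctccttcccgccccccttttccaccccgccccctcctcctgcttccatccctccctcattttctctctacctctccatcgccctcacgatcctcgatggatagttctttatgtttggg
Bdnf window 3, chr2:109692186-109692485 plus strand, SOX letters ending at -166 from the start: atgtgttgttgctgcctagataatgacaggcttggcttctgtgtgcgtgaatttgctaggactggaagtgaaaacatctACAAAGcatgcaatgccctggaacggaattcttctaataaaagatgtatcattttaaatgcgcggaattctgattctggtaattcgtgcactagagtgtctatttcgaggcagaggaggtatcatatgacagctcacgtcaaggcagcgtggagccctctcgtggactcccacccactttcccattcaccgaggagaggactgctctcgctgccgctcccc

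Gdnf, a survival factor for motor neurons, was at 0.222 to 1.56 CPM in the 21 healthy nerves, with a median of 0.886, and at 3.47 to 18.3 CPM in the 18 injured nerves, with a median of 7.77, so that no injured nerve overlapped a healthy one. In bulk RNA a change in the number of cells of a type and a change in the RNA per cell cannot be told apart. In Lepr-ctrl nerves at 2 wpc the healthy values were 0.394, 0.372, 0.932, 0.886 and 0.223 CPM and the injured values 8.69, 18.3, 9.18, 11.9 and 7.18 CPM. Gdnf rose 19-fold there, a log2 fold change of 4.25 (SE 0.426, adjusted p = 1.63e-10). Here and below, tests of change are edgeR quasi-likelihood tests over all 18442 genes with Benjamini-Hochberg adjustment, and a gene was called, or said to rise or fall, when its adjusted p was below 0.05 and its log2 fold change beyond 1 in size. In Lepr-cKO nerves at 2 wpc the injured values were 9.42, 7.01, 7.01, 13.9 and 11 CPM against 0.367 to 1.29 in the 6 healthy nerves, an 11.5-fold rise (log2 3.52, SE 0.38). At 4 wpc the injured nerves held 8.01, 6.76, 7.52 and 3.47 CPM in Lepr-ctrl and 12.5, 5.75, 5.38 and 7.43 CPM in Lepr-cKO, and the rises were 6.9-fold (log2 2.79, SE 0.418) and 8-fold (log2 3.0, SE 0.416). In the 17 mice with both nerves Gdnf was higher in the crushed nerve in 17, by 1.60 to 5.0 in log2 CPM.

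Artn, whose product artemin acts on sensory and sympathetic neurons, was close to the detection limit in healthy nerve, with 0 to 14 counts and 0 to 0.453 CPM. The healthy Lepr-ctrl nerve of mouse WT-168 had 0 counts, which allows up to 0.111 CPM. Injured nerves held 2.64 to 5.64 CPM, again without overlap. At 2 wpc the values were 5.45, 3.12, 2.78, 5.08 and 4.07 CPM in Lepr-ctrl and 4.32, 3.56, 4.11, 4.19 and 4.53 CPM in Lepr-cKO injured nerves, and at 4 wpc 3.48, 5.23, 3.96 and 3.47 CPM in Lepr-ctrl and 4.11, 5.64, 2.64 and 4.56 CPM in Lepr-cKO. The level of Artn thus lay in a narrow band in the 4 injured groups. Its rise had the highest estimate of the 9 genes in each comparison of injured with healthy nerve, but differences between genes were not tested. The log2 fold changes at 2 wpc were 4.71 (SE 0.398, 95% interval of the fold 14.9 to 45.8) in Lepr-ctrl and 4.48 (SE 0.358) in Lepr-cKO. At 4 wpc they were 4.28 (SE 0.4) and 3.90 (SE 0.387), the latter close to 3.79 (SE 0.671) for Bdnf. The adjusted p of Artn by edgeR was at most 3.25e-10. Artn was higher in the crushed nerve of 17 of 17 mice.

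Bdnf, the neurotrophin that binds TrkB, also rose in each of the 4 comparisons, from counts so low that single nerves weighed more. Healthy nerves had 0 to 11 counts, or 0 to 0.31 CPM. Injured Lepr-ctrl nerves had 1.33, 1.58, 0.849, 0.617 and 0.476 CPM at 2 wpc and 0.61, 1.59, 1.11 and 0 CPM at 4 wpc, the last being the nerve of mouse WT-178, where 0 counts allow up to 0.282 CPM. Injured Lepr-cKO nerves had 0.432, 1.58, 0.624, 1.87 and 1.35 CPM at 2 wpc and 3.75, 0.93, 0.863 and 1.5 CPM at 4 wpc. The groups overlapped only at 4 wpc in Lepr-ctrl, through mouse WT-178. The log2 fold changes were 2.51 (SE 0.616, adjusted p = 0.000624) and 2.70 (SE 0.57, adjusted p = 0.000106) at 2 wpc and 2.63 (SE 0.691, adjusted p = 0.00133) and 3.79 (SE 0.671, adjusted p = 1.42e-05) at 4 wpc in Lepr-ctrl and Lepr-cKO. Without mouse KO-169 the last was 3.09 (adjusted p = 0.000323). The antisense gene Gm45346 shares exon bases with Bdnf and had 0 counts in all libraries, but the libraries do not mark strand, so antisense reads from the shared bases cannot be told apart from those of Bdnf.

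Ntf3, which encodes NT-3, the ligand of TrkC, was the least certain of the ligands. It had 0 counts in 5 of 21 healthy nerves and at most 0.536 CPM in the others. Injured Lepr-cKO nerves at 2 wpc ranged from 0.0288 CPM (1 count, mouse SLRKO2wpc125) and 0.0797 CPM (2 counts, mouse SLRKO2wpc135) to 0.661, 1.48 and 2.52 CPM (89 counts, mouse SLRKO2wpc126), so the spread within the group was wider than the gap to the healthy nerves. Ntf3 was called there (log2 2.66, SE 0.8, adjusted p = 0.00412), but with each mouse as a block its log2 fold change was 2.02 and the call was lost (adjusted p = 0.0685). The highest value belonged to the library with muscle RNA. Without it Ntf3 had a log2 fold change of 1.92 (adjusted p = 0.0389). In Lepr-ctrl the injured values were 0.267, 0.129, 0.719, 0.285 and 0.22 CPM at 2 wpc (log2 2.13, 95% interval 0.13 to 4.12, adjusted p = 0.0577, not called) and 0.348, 0.956, 0.111 and 0.188 CPM at 4 wpc (log2 3.69, SE 1.243, adjusted p = 0.0102, called). The latter call rested on mouse WT-171, with 15 counts, and without it the log2 fold change was 2.71 (adjusted p = 0.114). At 4 wpc in Lepr-cKO Ntf3 was not called (log2 2.37, adjusted p = 0.0692), and it was called without mouse KO-169 (2.84, adjusted p = 0.0269).

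Among the receptors, Ngfr (chr11:95568818-95587735, minus strand) had a strong response at 2 wpc and a weaker one at 4 wpc in Lepr-ctrl. Healthy nerves held 49 to 148 CPM. At 2 wpc injured nerves held 381, 563, 389, 170 and 254 CPM in Lepr-ctrl and 296, 381, 205, 601 and 344 CPM in Lepr-cKO, all above every healthy nerve. Ngfr rose with log2 fold changes of 2.52 (SE 0.369, adjusted p = 3.59e-07) and 2.37 (SE 0.343, adjusted p = 2.85e-07). At 4 wpc the Lepr-ctrl injured nerves had 124, 142, 230 and 84.2 CPM and overlapped the healthy ones at 111, 62.8, 81.2, 148 and 84.7 CPM, and Ngfr was not called (log2 0.57, 95% interval of the fold 0.886 to 2.5, adjusted p = 0.174). In Lepr-cKO at 4 wpc 3 injured nerves had 161, 176.6 and 185 CPM and that of mouse KO-169 had 773 CPM. Ngfr rose there (log2 1.93, SE 0.374, adjusted p = 5.29e-05), and without mouse KO-169 the log2 fold change was 1.03 (adjusted p = 0.00618). The repair Schwann cell markers (Jun, Shh, Olig1, Sox2, Runx2 and Fgf5, 6 of 6 tested) had summed levels of 83.8 to 137 CPM in healthy nerves. They were higher in injured nerves at 2 wpc, as Ngfr was, at 260 to 473 CPM. In Lepr-ctrl injured nerves at 4 wpc they were at 200 to 262 CPM, above every healthy nerve, whereas Ngfr overlapped the healthy nerves. In the nerve with the high value they were at 588 CPM, beside its 137 CPM of neuron markers, at 48.8 to 82.6 CPM elsewhere. Their part in the result was not tested.

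Gfra1 (chr19:58235604-58455909, minus strand), the co-receptor for GDNF, moved the opposite way to its ligand. It was at 325 to 448 CPM in the 21 healthy and 63.9 to 259 CPM in the 18 injured nerves, without overlap, and was lower in the crushed nerve of 17 of 17 mice, with differences of -1.74 to -0.64 in log2 CPM. At 2 wpc the injured nerves had 160, 172.6, 172, 63.9 and 176.9 CPM in Lepr-ctrl and 164, 122.6, 110, 130.5 and 140 CPM in Lepr-cKO. Gfra1 fell with log2 fold changes of -1.31 (SE 0.162, adjusted p = 1.39e-08) and -1.40 (SE 0.157, adjusted p = 1.97e-09). At 4 wpc the injured nerves had 181, 160, 181 and 194 CPM in Lepr-ctrl, where Gfra1 fell by 1.19 on the log2 scale (adjusted p = 3.75e-07), and 259, 198, 251 and 157 CPM in Lepr-cKO. The log2 fold change in Lepr-cKO at 4 wpc was -0.87 (adjusted p = 6.75e-05), short of the fold threshold. The summed Schwann cell markers were also lower in injured nerve (804 to 2260 against 2390 to 3030 CPM), and their part in the result was not tested.

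Ntrk2 (chr13:58806569-59133970, plus strand), which encodes the BDNF receptor TrkB, was at 97.9 to 148 CPM in healthy nerves. At 2 wpc the Lepr-ctrl injured nerves were spread over 40.1, 134, 103, 27.1 and 40.5 CPM, and Ntrk2 did not pass the fold threshold (log2 -0.80, adjusted p = 0.0174). The Lepr-cKO injured nerves at 2 wpc had 56.3, 79, 51.8, 90.3 and 60.9 CPM, below every healthy nerve but also short of the threshold (log2 -0.78, adjusted p = 0.0152). At 4 wpc Ntrk2 fell in both genotypes, to 26.8, 40.4, 37.2 and 24.3 CPM in Lepr-ctrl (log2 -1.98, SE 0.33, adjusted p = 3.54e-06) and to 76, 20.4, 34.5 and 30.3 CPM in Lepr-cKO (log2 -1.62, SE 0.323, adjusted p = 7.62e-05), where the highest value was again that of mouse KO-169.

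Gfra3, on chromosome 18, which encodes the co-receptor for artemin, was at 1.16 to 3.61 CPM in healthy nerves and did not follow its ligand closely. It rose in Lepr-cKO at 2 wpc (log2 1.31, SE 0.389, adjusted p = 0.00375), where the injured nerves had 4.75, 5.82, 3.31, 5.34 and 9.31 CPM. The other comparisons gave no call, with log2 fold changes of 0.56 (adjusted p = 0.235) for Lepr-ctrl at 2 wpc, where the injured nerves had 1.94, 6.15, 5.46, 0.997 and 1.79 CPM, 0.98 (adjusted p = 0.0557) for Lepr-ctrl at 4 wpc and 0.49 (adjusted p = 0.355) for Lepr-cKO at 4 wpc. At 4 wpc mouse KO-169 had 7.71 CPM against 2.02 to 2.39 CPM in the rest of its group.

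Ret (chr6:118151745-118197718, minus strand), the signalling kinase of the GDNF family receptors, was at 3.85 to 13.1 CPM in healthy nerves. At 2 wpc the Lepr-ctrl injured nerves had 13.1, 12.7, 15.6, 16.9 and 8.76 CPM, and Ret was not called (log2 0.69, adjusted p = 0.121). The Lepr-cKO injured nerves had 12.8, 22.1, 26.6, 71.2 and 5.52 CPM, a range of more than 10-fold from mouse SLRKO2wpc138 to mouse SLRKO2wpc135. Ret rose in that comparison (log2 1.79, SE 0.376, adjusted p = 9.59e-05), and without mouse SLRKO2wpc135 the log2 fold change was 1.07 (adjusted p = 0.00455). At 4 wpc the injured nerves were back among the healthy ones, with 7.14, 3.31, 6.74 and 10.2 CPM in Lepr-ctrl and 4, 5.31, 3.86 and 4.83 CPM in Lepr-cKO, and the log2 fold changes were -0.29 (adjusted p = 0.577) and -0.61 (adjusted p = 0.231). In the Lepr-cKO injured nerves at 2 wpc, of SLRKO2wpc125, SLRKO2wpc126, SLRKO2wpc128, SLRKO2wpc135 and SLRKO2wpc138, the summed endothelial markers (Pecam1, Cdh5, Kdr, Emcn and Cldn5, 5 of 5 tested) were at 378, 672, 991, 1510 and 448 CPM. The nerve with the most Ret thus also had the most endothelial RNA. In Lepr-ctrl injured nerves these markers were at 509 to 867 CPM at 2 wpc. They were at 568 to 893 CPM at 4 wpc, where Ret was at 3.31 to 10.2 CPM. In Lepr-cKO injured nerves at 4 wpc they were at 369 to 964 CPM. The highest of these was mouse KO-177, with 4.83 CPM of Ret. The part of the endothelial markers in the result was not tested.

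**Figure D2:**
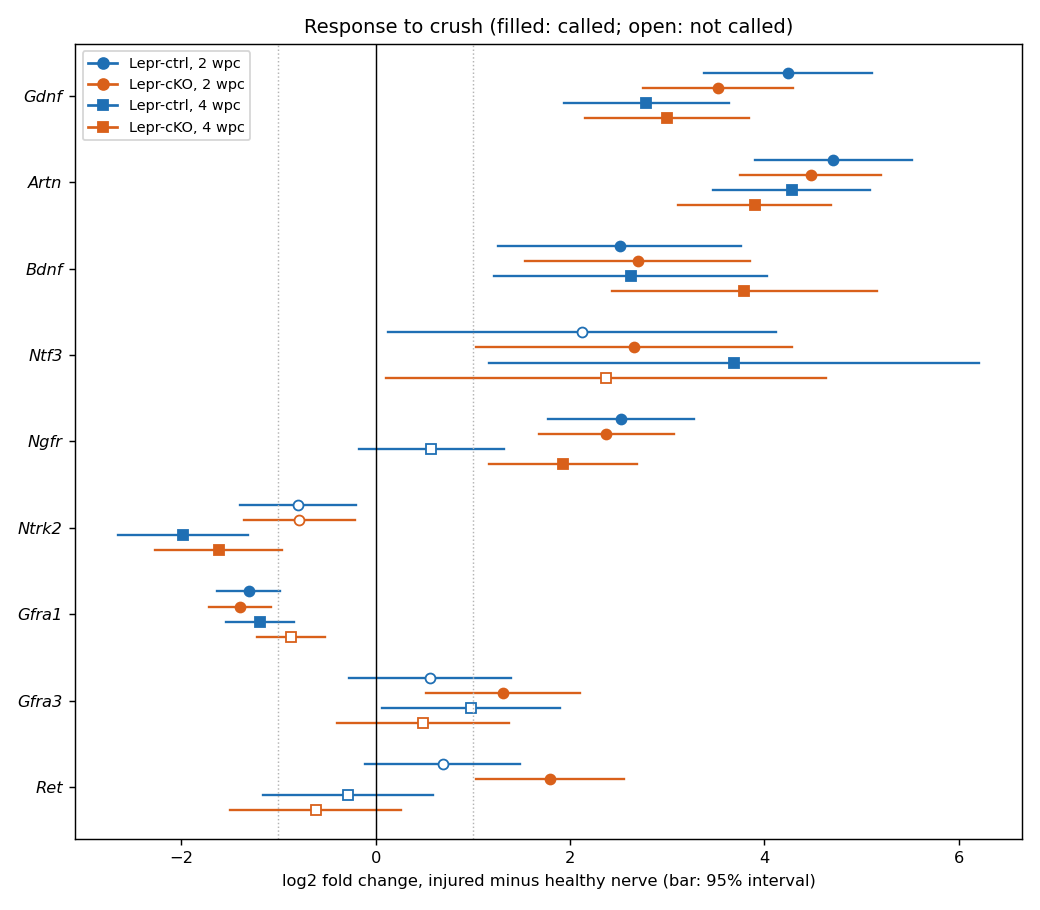
Log2 fold change of injured over healthy nerve for the 9 genes in each genotype and time, with 95% intervals from the edgeR fit; filled points are called. Gdnf, Artn and Bdnf lie above the threshold in all 4 comparisons, Gfra1 and Ntrk2 lie below 0, and Ngfr drops from 2.52 to 0.57 between 2 and 4 wpc in Lepr-ctrl.

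Counted over the 9 genes, the crush gave 4 higher and 1 lower in Lepr-ctrl at 2 wpc, where 19.8% of all genes tested were called higher and 14.3% lower. It gave 7 higher and 1 lower in Lepr-cKO at 2 wpc (20.9% and 13.4% of all genes). At 4 wpc there were 4 higher and 2 lower in Lepr-ctrl (20.1% and 15.9% of all genes) and 4 higher and 1 lower in Lepr-cKO (16.8% and 10.8%). The median log2 fold change of the 9 genes was 2.13, 2.37, 0.98 and 1.93 in these comparisons, against 0.078, 0.097, 0.024 and 0.057 over all genes. Gdnf, Artn and Bdnf rose in all 4 comparisons, whereas the receptors went in both directions, with Ngfr, Gfra3 and Ret called higher in some of the comparisons and Gfra1 and Ntrk2 called lower in some.

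**Figure D3:**
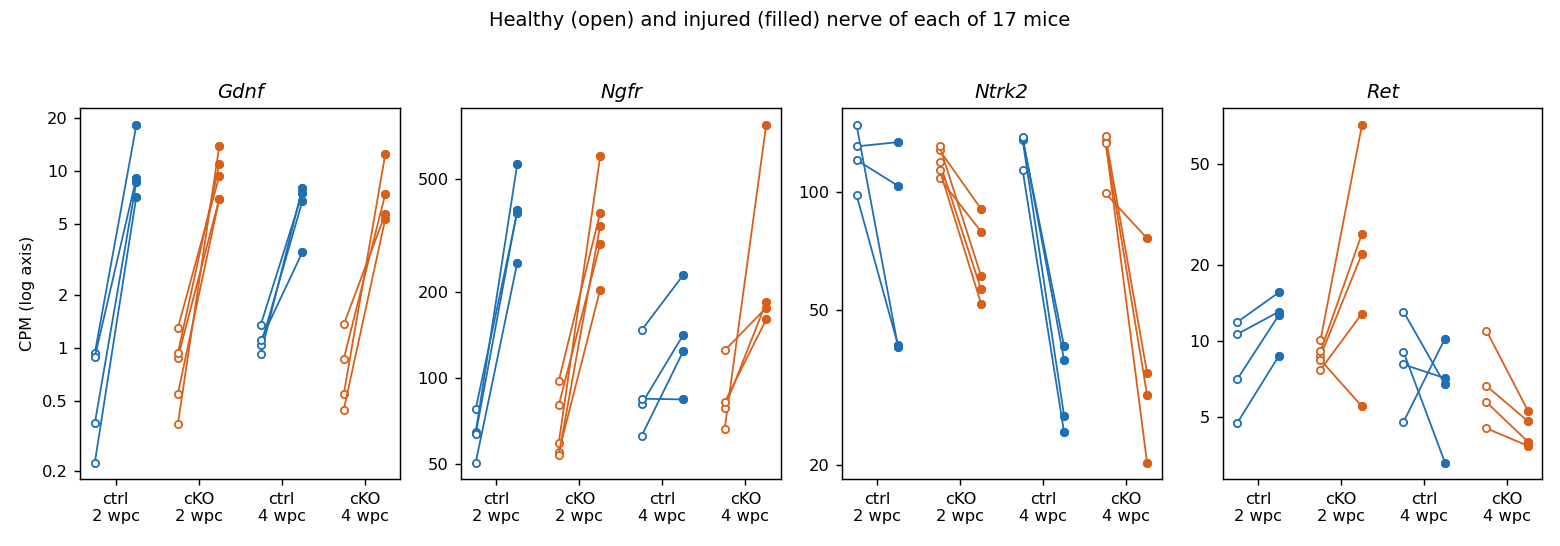
Level of Gdnf, Ngfr, Ntrk2 and Ret in the healthy (open) and the injured (filled) nerve of the 17 mice with both nerves, in CPM on log axes, with a line joining the nerves of each mouse in each genotype and time. The lines of Gdnf go up in 17 of 17 mice and those of Ngfr in 16, those of Ntrk2 go down in 16, and those of Ret go up in 9.

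The second question of the design was whether loss of the leptin receptor in Schwann cells altered these genes. None of the 9 was called between Lepr-cKO and Lepr-ctrl in injured nerve at 2 wpc (0.569% of all genes called) or 4 wpc (0.45%), or in healthy nerve at 2 wpc (0.00542%) or 4 wpc (0.00542%), by edgeR or by DESeq2. At an unadjusted p below 0.05 there were 1, 1, 0 and 0 of the 9, against 6.44%, 19.9%, 1.2% and 1.88% of all genes. In injured nerve at 2 wpc the 95% interval of the log2 difference was -0.92 to 0.54 for Gdnf and -0.62 to 0.65 for Artn. Ntf3 was not bounded closely, with the highest genotype estimate of the 9 genes at 2 wpc (log2 1.55, 95% interval -0.09 to 3.19) and an interval of -2.39 to 1.80 at 4 wpc. Bdnf at 4 wpc was at log2 1.04 with an interval of -0.24 to 2.33, and without mouse KO-169, which had 3.75 CPM, at 0.34.

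The members that came nearest to a genotype difference were Ret and Ngfr, and each rested on 1 nerve. Ret in injured nerve at 2 wpc was higher in Lepr-cKO by log2 1.04 (95% interval 0.249 to 1.84, adjusted p = 0.491), and without mouse SLRKO2wpc135 the difference was 0.32 (adjusted p = 0.952). Ngfr in injured nerve at 4 wpc was higher in Lepr-cKO by log2 1.16 (95% interval 0.356 to 1.96, adjusted p = 0.0974), and without mouse KO-169 it was 0.26 (adjusted p = 0.749). Leaving out mouse KO-177 instead brought Ngfr past the threshold (log2 1.35, adjusted p = 0.0261). The difference in injury response between the genotypes, tested as an interaction, gave 0 of 9 at both times, against 0% of all genes. The interaction estimate was 1.10 for Ret at 2 wpc (95% interval 0.003 to 2.19, adjusted p = 0.999) and 1.35 for Ngfr at 4 wpc (95% interval 0.282 to 2.42, adjusted p = 0.387). These were the members with an unadjusted p below 0.05, 1 at each time, and DESeq2 called 0. Across all genes 797 and 2013 interactions had an unadjusted p below 0.05, or 4.32% at 2 wpc and 10.9% at 4 wpc.

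**Figure D4:**
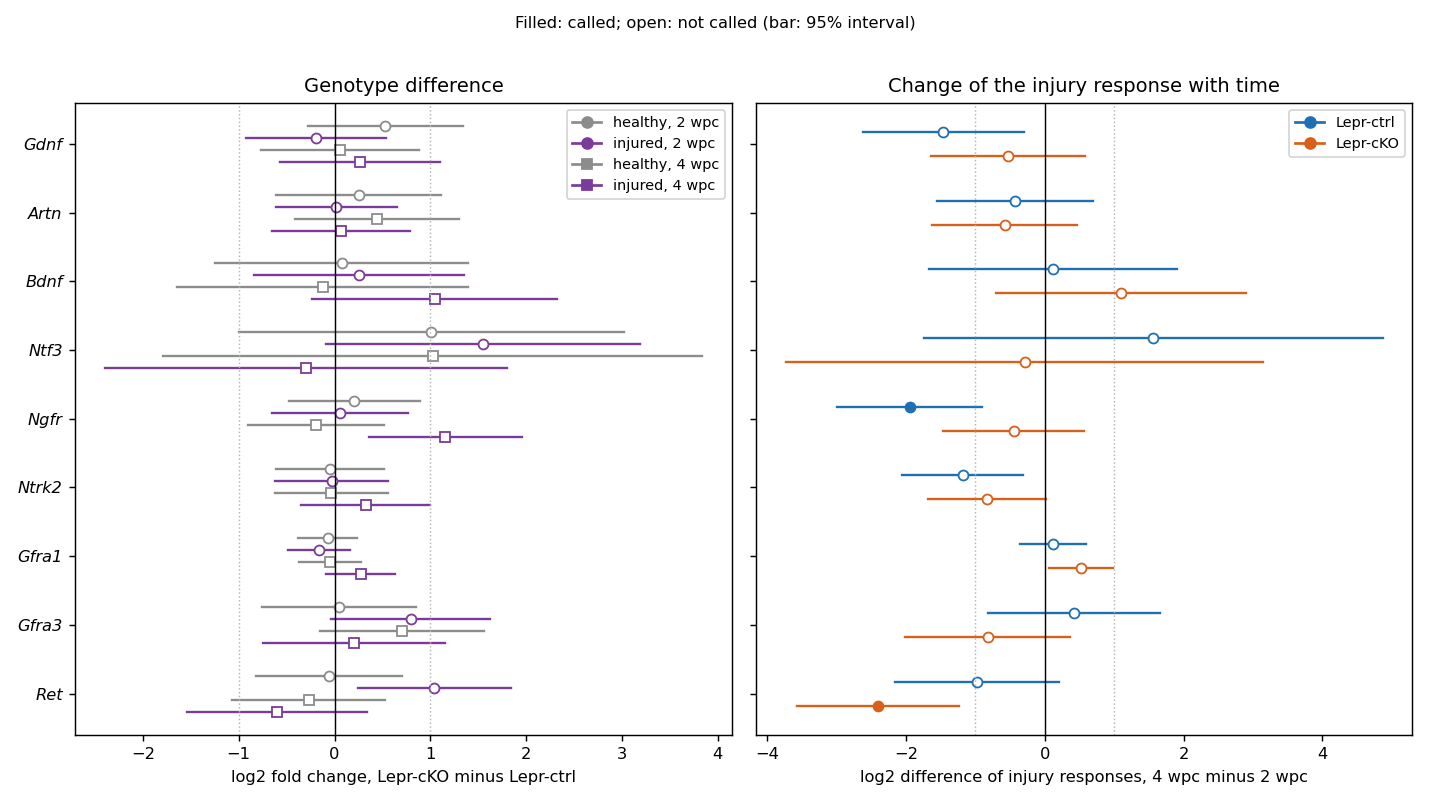
Log2 differences of the 9 genes between genotypes, and between 4 and 2 wpc in the injury response, with 95% intervals from the edgeR fit. The genotype intervals of Gdnf and Artn include 0 in the 4 comparisons, and the filled points, the called ones, are Ngfr (-1.95, Lepr-ctrl) and Ret (-2.40, Lepr-cKO) in the comparison of times.

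The injury response was then compared between 4 and 2 wpc within each genotype. In Lepr-ctrl 1 of the 9 genes was called (4.42% of all genes). This was Ngfr, whose response was smaller at 4 wpc by 1.95 on the log2 scale, a difference of -1.95 (SE 0.518, 95% interval -3.00 to -0.90, adjusted p = 0.0146), and it was called in 19 of 19 fits that left out a library. Mean Ngfr in Lepr-ctrl injured nerves was 351 CPM at 2 wpc and 145 CPM at 4 wpc. In the healthy nerves of these different animals it was 61.1 and 97.4 CPM, so both nerves entered the difference. Gdnf had a difference of -1.46 (95% interval -2.62 to -0.30, adjusted p = 0.104) and Ntrk2 one of -1.18 (adjusted p = 0.0774), neither of them called. Ntrk2 was called without mouse SLRKO2wpc144 (-1.38, adjusted p = 0.0186), without mouse SLRKO2wpc147 (-1.34, adjusted p = 0.0469) and by DESeq2 (-1.17, adjusted p = 0.0498), and Gdnf without the healthy nerve of mouse WT-168 (-1.73, adjusted p = 0.0396). In Lepr-cKO Ngfr had a difference of -0.45 (adjusted p = 0.759), and whether the change with time differed between the genotypes was not tested. The single call in Lepr-cKO (1.42% of all genes) was Ret, at -2.40 (SE 0.577, 95% interval -3.58 to -1.23, adjusted p = 0.0182). This call was lost without mouse SLRKO2wpc135 (-1.68, adjusted p = 0.0673) and with each mouse as a block (-1.76, adjusted p = 0.119). The response of Artn differed by -0.43 in Lepr-ctrl (95% interval -1.55 to 0.69) and by -0.57 in Lepr-cKO (-1.62 to 0.47), not called, with 2.78 to 5.45 CPM in Lepr-ctrl injured nerves at 2 wpc and 3.47 to 5.23 CPM at 4 wpc.

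**Figure D5:**
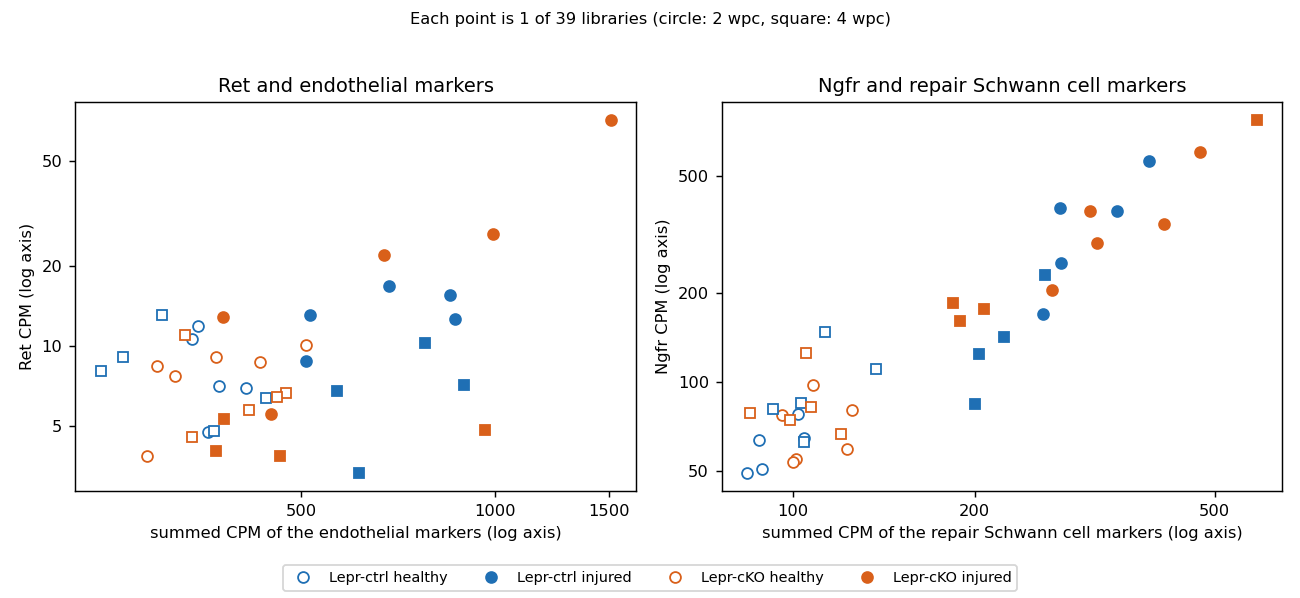
Level of Ret against the summed endothelial markers and of Ngfr against the summed repair Schwann cell markers in the 39 libraries, in CPM on log axes; colour gives the genotype, filling the nerve and shape the time. Mouse KO-169 stands out with 773 CPM of Ngfr at 588 CPM of repair Schwann cell markers, and mouse SLRKO2wpc135 with 71.2 CPM of Ret at 1510 CPM of endothelial markers.

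The genes of the same pathways around these 9 were taken as 6 lists, with 51 genes that passed the filter. Of these, 11 rose and 9 fell in Lepr-ctrl at 2 wpc and 11 and 9 in Lepr-cKO, and at 4 wpc 14 rose and 14 fell in Lepr-ctrl and 12 and 9 in Lepr-cKO. As shares of the 51 genes these were 21.6% higher and 17.6% lower in both genotypes at 2 wpc, against 19.8% and 14.3% of all genes in Lepr-ctrl and 20.9% and 13.4% in Lepr-cKO. At 4 wpc they were 27.5% and 27.5% in Lepr-ctrl, against 20.1% and 15.9% of all genes, and 23.5% and 17.6% in Lepr-cKO, against 16.8% and 10.8%. Their median log2 fold changes were 0.01, 0.049, -0.009 and 0.184, against 0.078, 0.097, 0.024 and 0.057 over all genes. Of 6 other ligands tested 2 rose in Lepr-ctrl at 2 wpc. Gdf15, a distant member of the ligand superfamily that signals through GFRAL and RET, rose by log2 3.94 (adjusted p = 1.28e-09). Nrtn, which encodes neurturin, was not called (log2 1.11, adjusted p = 0.0726). Of 11 other receptors tested 2 rose and 4 fell. Sort1, which encodes the proneurotrophin co-receptor sortilin, fell in all 4 comparisons (log2 -1.91, -1.91, -2.57 and -1.76). Ntrk3 and Gfra2, the receptors of NT-3 and neurturin, were not called in Lepr-ctrl at 2 wpc (log2 0.19 and -0.21). At 4 wpc both were lower in Lepr-ctrl injured than healthy nerves, without overlap. The ranges were 34.6 to 59.6 against 81.2 to 121 CPM for Ntrk3 and 10.6 to 21.5 against 44.5 to 75.6 CPM for Gfra2. In Lepr-cKO at 4 wpc the injured and healthy nerves overlapped for both genes. Also called in Lepr-ctrl at 2 wpc were the ligand gene Cdnf (log2 -2.10), the p75-related Nradd (1.12), the sortilin relatives Sorcs3 (-3.53) and Sorcs1 (-1.63) and the proteoglycan gene Sdc3 (-2.05).

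In Lepr-ctrl at 2 wpc, where the shares of all genes called were 19.8% higher and 14.3% lower, the lists of downstream and partner genes were small, so that a few calls make up each count. Of 12 adaptors 5 rose, with Sh2b2 (log2 2.68), Dok4 (1.90) and Dok5 (1.57) next to Shc2 (3.0), and 1, Frs2 (-1.09), fell. Shc2, an adaptor of receptor kinases, went from a mean of 2.8 CPM in healthy to 22.3 CPM in injured nerve at 2 wpc and from 2.83 to 86.8 CPM at 4 wpc, and its response was larger at 4 wpc in both genotypes (difference 1.93 in Lepr-ctrl and 1.37 in Lepr-cKO). Pcsk6, a proprotein convertase, was the 1 called gene of 6 that process ligands, falling from 146.5 ± 8.27 to 3.89 ± 3.22 CPM (SD, n = 5 each, log2 -5.21). Of 6 partners of the p75 receptor 2 fell, Rtn4r, the Nogo receptor (log2 -1.94), and Maged1 (-1.24). Of 10 genes known to respond to these factors 2 rose, Spry1 (log2 1.27) and Etv4 (log2 1.09), and the call of Etv4 was lost in 3 fits that left out a library. Jun, the transcription factor of the repair state, rose from a mean of 57.3 to 139 CPM in Lepr-ctrl and from 65.7 to 176.5 CPM in Lepr-cKO at 2 wpc. At 4 wpc Jun was not called in Lepr-ctrl (log2 0.734). It was called in Lepr-cKO at 4 wpc (log2 1.065), but not without the injured nerve of mouse KO-169 (log2 0.546). None of the 51 genes was called between genotypes in the 4 comparisons by edgeR, where 4, 16, 0 and 1 had an unadjusted p below 0.05 in injured nerve at 2 and 4 wpc and in healthy nerve at 2 and 4 wpc. These were 7.84%, 31.4%, 0% and 1.96% of the 51 genes, against 6.44%, 19.9%, 1.2% and 1.88% of all genes.

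The genes whose log2 CPM followed each member most closely over the 39 libraries were ranked by Pearson's r, as a description only, since all libraries share the split into healthy and injured nerve. For Gdnf they were Epha5 (r = 0.952), Abca1 (0.951) and 6530402F18Rik (0.949), and for Artn Wnt10b (0.967), Cela1 (0.965) and Plekho1 (0.962). Within the 18 injured nerves alone Epha5 kept an r of 0.84 with Gdnf, whereas Wnt10b had 0.403 with Artn. Ngfr went with Csdc2 (0.946) and Thbs2 (0.946), which had r of 0.893 and 0.926 with it in injured nerves and 0.665 and 0.491 in the 21 healthy ones. Gfra1 went with Plekhb1 (0.98), Sema5a (0.979) and Fut8 (0.978), and Ntrk2 with Prnp (0.963) and Cadm2 (0.954). Ret went with Calcrl (0.794), She (0.794) and Heg1 (0.793), and in injured nerves alone the r of Calcrl and Heg1 with Ret was 0.896 and 0.922. Bdnf, Ntf3 and Gfra3 had weaker neighbours, led by Klk8 (0.845), Amigo2 (0.834) and Ptn (0.754).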

How the data were processed

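Total RNA of endoneurium from the 39 nerves was sequenced by the study as single short reads from libraries that do not mark strand. The authors deposited raw counts per gene, made with bcl2fastq 2.20.0.422, STAR 2.5 and featureCounts 1.5.0-p1 per the labels and methods, on GRCm38; whether reads with several matches were counted is not given in the sources used here. Gene names and exon lengths came from GENCODE M21. Counts were not altered. Libraries were normalized by TMM, genes were filtered by group (filterByExpr, minimum count 10, minimum total 15), and 12 contrasts of the 8 groups were tested in 1 fit over 18442 genes with edgeR 4.0.16 (quasi-likelihood, two-sided, R 4.3.3), a step that was tested on simulated data. A gene was called at an adjusted p below 0.05 and an absolute log2 fold change above 1. Levels are CPM, and log2 CPM used a prior count of 2. Intervals are at 95%; floors (3 counts for a count of 0) cover counting error only. In the shallowest library 1 CPM is 10.9 counts.

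Replicates are separate mice. Labels number the mice, so the nerves of 17 mice pair by animal; their deviations from the group means correlated at -0.064 to 0.262 (median 0.12), with 11 of 17 pairs above 0.1. The alternatives were DESeq2 1.42.0, its size factors in edgeR, no filter, mitochondrial genes left out, a term for sex, the compared groups alone, adjusted p alone, a block for the animal and leaving out each library. The members and lists were chosen with earlier results of these data known. From each list of other pathway genes, up to 4 per direction with the largest change among those called in Lepr-ctrl at 2 wpc were named; Nrtn, Ntrk3, Gfra2 and markers beside single libraries were named after their values were seen. Similar genes are the 3 with the highest r at a mean log2 CPM of at least 1. Promoter windows of 7 members were matched in the RefSeq table, and Ret had no entry. Windows on chromosome 18, where Gfra3 lies, were left out of the search, so Gfra3 was not searched. The authors' tests were not used. Of the genes these rules name, 3 are not reported here.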

Additional observations from a re-analysis of the deposited data

Results flagged for a closer look

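In 6 of the 72 combinations of a member and a group, 1 library lay far from the rest by Dixon's criterion, and 5 libraries were behind them. Chance flags about 1 in 20 groups. Ngfr was at 773 CPM in the Lepr-cKO injured 4 wpc nerve of mouse KO-169, where the next value was 185, and Gfra3 in the same nerve was at 7.71 CPM against 2.39. Ngfr was at 125.1 CPM in the Lepr-cKO healthy 4 wpc nerve of mouse KO-175 against 82.2 for the next. Gfra1 was low, at 63.9 CPM, in the Lepr-ctrl injured 2 wpc nerve of mouse SLRKO2wpc144, where the next value was 160. Ntf3 was at 0.536 CPM in the Lepr-cKO healthy 2 wpc nerve of mouse SLRKO2wpc135 (next 0.129) and at 0.719 CPM in the Lepr-ctrl injured 2 wpc nerve of mouse SLRKO2wpc131 (next 0.285).

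The response to injury differed between the times for 2 members by the test of the difference itself. The response of Ngfr in Lepr-ctrl was smaller at 4 than at 2 wpc (log2 difference -1.95), and that of Ret in Lepr-cKO had a difference of -2.40. The call of Ret was lost with the animal as a block (-1.76, adjusted p = 0.119 by edgeR), with the compared groups alone (adjusted p = 0.0748) and without the injured nerve of mouse SLRKO2wpc135 or of mouse KO-176.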

How the results depend on the processing

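No change of the members turned its direction in any alternative where it was called. Size factors of DESeq2, no filter, genes of the mitochondrial genome left out and a term for sex left every call of the 9 members in the 12 comparisons as it was. Counts of members called differed from those reported as follows. For the comparison of times in Lepr-ctrl, 1 to 2 were called when a library was left out and 2 by DESeq2. In Lepr-cKO it was 0 to 1 with a library left out, 0 with the compared groups alone and 0 with the animal as a block (Ret -1.76, adjusted p = 0.119 by edgeR). For the genotypes in injured nerve at 4 wpc it was 0 to 1 with a library left out, 1 being without mouse KO-177. Pathway genes had these alternatives added after the data were seen. With a library left out, 0 to 1 were called between genotypes in injured nerve at 2 wpc and 0 to 1 at 4 wpc, and 4 to 10, against 9 reported, in the comparison of times in Lepr-ctrl, the 4 being without mouse SLRKO2wpc130. Among injury comparisons, Ntf3 was called in Lepr-ctrl at 2 wpc without the injured nerve of SLRKO2wpc130 (2.34, adjusted p = 0.0445 by edgeR) or the healthy one of SLRKO2wpc131 (2.56), and in Lepr-cKO at 4 wpc by DESeq2 (2.61, adjusted p = 0.0468) and without the healthy nerve of KO-179 (3.29) or the injured one of KO-169 (2.84), and Ntrk2 in Lepr-ctrl at 2 wpc without mouse SLRKO2wpc130 (-1.18, adjusted p = 0.000443 by edgeR). Gfra3 in Lepr-ctrl at 4 wpc was called without the injured nerve of WT-178 (1.2, adjusted p = 0.0263 by edgeR), without the healthy one of WT-173 (1.13) and with the compared groups alone (1.02). Cdnf in Lepr-cKO at 2 wpc had a log2 fold change of -1.88 without the library with muscle RNA and -0.45 with it. The cause of these differences was not tested. The block for the animal changed no other call of the members than those of Ntf3 and Ret. Depth limits Bdnf, Ntf3 and Artn, whose healthy nerves had at most 19 counts.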
